A study of Mus musculus with 12 samples.

Results

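Nsun5 and Dnmt3a, whose protein products are cytosine methyltransferases, each carried 1 cytosine in a table of 2498 candidate 5-methylcytosine (m5C) sites from the polyadenylated RNA of mouse tissues. The 2 sites were all rows of the table bearing either gene name, whatever their values. Both were covered in all 6 tissues, and by observed m5C level they ranked the tissues in different orders. No step between neighbouring tissues in either order passed the test, and whether the orders differ was not itself tested. The Nsun5 site had its highest observed levels in liver and heart and its lowest in lung and muscle, whereas the Dnmt3a site was highest in muscle. The Nsun5 level in muscle was not separated by the test from those in small intestine, spleen and lung. Muscle was not called different from heart or liver at either site. At the Nsun5 site the level was called higher in heart and in liver than in lung, and at the Dnmt3a site it was called higher in muscle than in small intestine and in spleen.

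The RNA came from wild-type C57BL/6 mice of 8 to 10 weeks. Muscle had 4 libraries and heart and liver 1 each, all from females, while small intestine, lung and spleen each had 1 female and 1 male library, 12 in all. In bisulfite sequencing, unmodified cytosines are read as T and m5C stays C, so the m5C level of a site is the percentage of covering reads that stayed unconverted. The table gives 1 level and 1 coverage per tissue, so no spread between animals can be computed and every interval and test below covers counting error only. The muscle, heart and liver columns hold females alone. Where such a column is set against small intestine, lung or spleen, sex and tissue cannot be told apart. Each of the 4 calls at the Nsun5 and Dnmt3a sites is a comparison of that kind. Comparisons among muscle, heart and liver are between females only. In whole tissue, a level is a share over the transcripts of all cell types present, and fewer cells of a type and less RNA per cell cannot be told apart.

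Cytosine methyltransferases of the Nsun family act on RNA. NSUN5 methylates a conserved cytosine of the large ribosomal RNA, a role also known for its yeast relative Rcm1, and the human gene lies in the region deleted in Williams-Beuren syndrome. DNMT3A is a de novo DNA methyltransferase, which sets methyl groups on cytosines of unmethylated DNA, together with DNMT3B and the catalytically inactive partner DNMT3L. It is transcribed from more than one promoter, and the downstream start gives the shorter protein known as Dnmt3a2. Methylation of mRNA cytosines is attributed mainly to NSUN2, with NSUN6 at a smaller set of sites. The measurements below concern cytosines listed under the gene names Nsun5 and Dnmt3a, not the activity of the enzymes these genes encode.

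The Nsun5 site (ENSMUSG00000000916) lay on the plus strand of chromosome 5 at 135376301 in the mm10 build. RefSeq on GRCm38.p6, the same assembly, places the gene at 135369930 to 135376805, which puts the site 504 nt before the end of the span and 92.7% of the way along it. The span of Pom121, a nuclear pore gene whose annotated start is 18.2 kb away on the minus strand, covers 135376140 to 135404841 and therefore also holds the position. The table gives the plus strand for the site, and the sources used here do not say whether reads were assigned by strand. The Dnmt3a site (ENSMUSG00000020661) lay on the plus strand of chromosome 12 at 3835067, inside a gene span of 112885 bp from 3801559 to 3914443. It was 28.1 and 27.9 kb downstream of annotated transcription starts at 3806980 and 3807160, and 56.7 kb upstream of the start at 3891744. Transcripts that begin at that last start cannot include it. Exons and introns were not analysed here. Neither site had a neighbour: the nearest listed site on the same strand was 195 kb from the Nsun5 site and 53.8 kb from the Dnmt3a site.

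Over all listed sites, median coverage per tissue ran from 223 reads in muscle down to 65 in lung and 56 in spleen. Of 40 tissue marker genes chosen for the check, 7 had listed sites. Reads at Myh4 and Myh1, the fast skeletal myosins, were most numerous in muscle, those at Alb in liver, and those at Defa24 and Lyz1, Paneth cell genes, in small intestine. Heart markers had no listed site. Raw reads at Csf1r and Abca3, the markers listed for spleen and lung, were not highest in those tissues. Csf1r had 634 reads in spleen and 1548 in small intestine, and Abca3 had 981 in lung and 1001 in liver. Coverage summed over listed sites was only 304426 in spleen and 261562 in lung, against 2117347 to 4683960 in the other tissues. Raw reads therefore do not compare tissues at equal depth, and the identity of heart, lung and spleen was not settled from them.

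At the Nsun5 site 8 of 142 reads stayed unconverted in muscle, a level of 5.63% (95% Wilson interval 2.88 to 10.7). Heart had 24 of 171 reads unconverted, 14.04% (9.62 to 20.03), and liver 23 of 151, 15.2% (10.4 to 21.8). These are the tissues in which the authors' table calls an m5C site, with deposited p-values of 1.2e-33 in heart and 1.6e-35 in liver. Small intestine had 8 of 97 reads unconverted, 8.25% (4.24 to 15.4), and spleen 3 of 44, 6.82% (2.35 to 18.2). In lung none of 63 reads was unconverted, which allows a level of up to 4.76% by the limit of 3 counts and up to 5.75% by the Wilson interval. From high to low the order was liver, heart, small intestine, spleen, muscle and lung. None of the 5 neighbouring steps in that order passed an adjusted p of 0.05 in Fisher's exact test, and only pairs farther apart in it did.

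**Figure D1:**
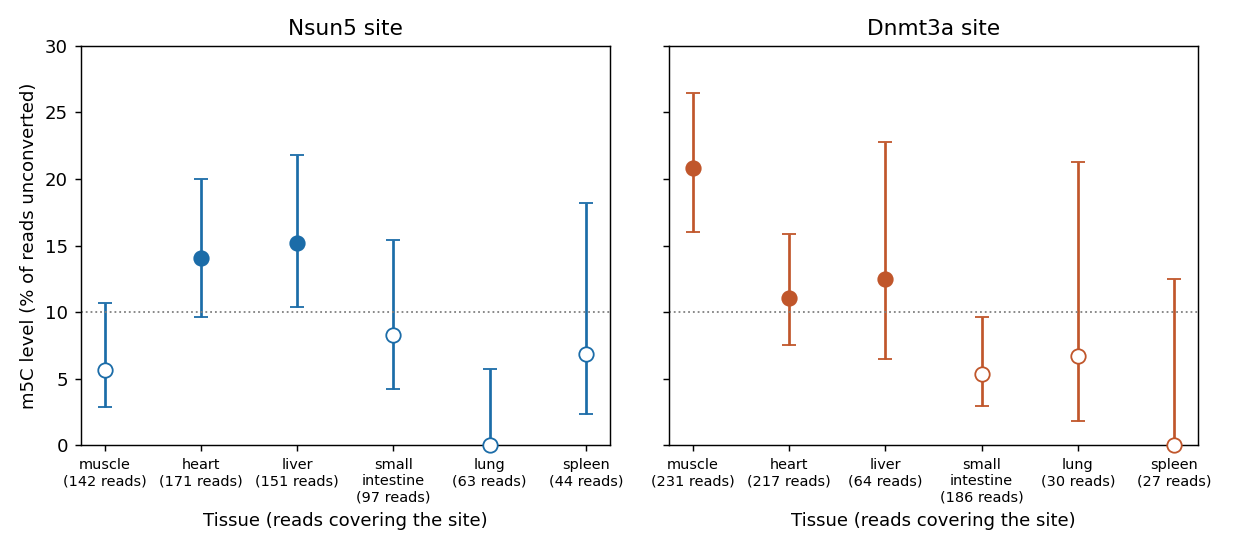
m5C level (percent of reads unconverted) of the Nsun5 and Dnmt3a sites in 6 tissues, with 95% Wilson intervals that cover counting error only; filled points are tissues where the authors called an m5C site, and the dotted line is at 10%. The Nsun5 site stands above 10% in heart (14.04%) and liver (15.2%), and the Dnmt3a site in muscle (20.8%), heart (11.1%) and liver (12.5%).

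All 15 pairs of tissues were tested with Fisher's exact test, two-sided, at every listed site that had 20 reads or more in both, and p-values were adjusted by Benjamini-Hochberg over the sites of the pair. A call needed an adjusted p below 0.05 together with 10 percentage points or more between the tissues. The Nsun5 site was called in 2 of 15 pairs, both with lung; over all sites and pairs 23.5% of 17579 tests gave a call. In heart it was 14.04 points above lung (95% interval 6.79 to 20.03; Fisher's exact test, adjusted p = 0.0013), a pair in which 34.9% of 1122 tested sites were called and 33.7% were called higher in heart. In liver it was 15.2 points above lung (7.70 to 21.8; Fisher's exact test, adjusted p = 0.0022). Calls were fewer in that pair, 13.9% of 1007 sites, with 12.3% higher in liver, and 8.34% of the sites differed by as much as Nsun5 in either direction. Both calls rest on the absence of unconverted reads among 63 in lung, and under a Bonferroni adjustment of Fisher's exact test neither passed (adjusted p = 0.51 against heart and 0.37 against liver).

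The Nsun5 level in muscle was also set against those in heart and liver. Muscle minus heart was -8.40 points (-15.001 to -1.66; Fisher's exact test, adjusted p = 0.041) and muscle minus liver -9.60 points (-16.7 to -2.56; Fisher's exact test, adjusted p = 0.017). Both passed the p threshold and missed the minimum of 10 points. On sites the authors called outside the pair the adjusted p of muscle minus heart was 0.051 by Fisher's exact test, and under a Bonferroni adjustment of Fisher's exact test neither difference passed (adjusted p = 1 for both). Without that minimum, 15.7% of 1645 sites were lower in muscle than in heart and 22.5% higher, and 6.85% of 1372 sites were lower in muscle than in liver and 44.7% higher. In both pairs the Nsun5 difference lay in the less frequent direction. Muscle minus small intestine was -2.61 points (-10.3 to 3.86) and muscle minus spleen -1.18 points (-12.9 to 5.59), neither past the test. The heart and liver levels differed by -1.20 points (-9.13 to 6.53), an interval that leaves room for differences of several points either way.

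The Dnmt3a site had 48 of 231 reads unconverted in muscle, a level of 20.8% (16.05 to 26.5). The next levels were 12.5% in liver, from 8 of 64 reads (6.47 to 22.8), and 11.1% in heart, from 24 of 217 reads (7.55 to 15.9). The authors' table calls the site in these 3 tissues, with deposited p-values of 2.4e-100 in muscle, 2.4e-42 in heart and 1.4e-16 in liver. Lung had 2 of 30 reads unconverted, 6.67% (1.85 to 21.3), and small intestine 10 of 186, 5.38% (2.95 to 9.61). In spleen none of 27 reads was unconverted, for which 3 counts would be a level of 11.1% and the Wilson interval reaches 12.5%. The order from high to low was muscle, liver, heart, lung, small intestine and spleen. No neighbouring step of it passed the test, and the lung and spleen levels rest on the fewest reads.

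The Dnmt3a site was called in 2 of 15 pairs, both with muscle, beside the 23.5% of tests called over all sites and pairs. It was 15.4 points higher in muscle than in small intestine (9.05 to 21.6; Fisher's exact test, adjusted p = 1.0e-05), where 40.2% of 1397 sites were called and 37.4% were called higher in muscle. It was 20.8 points higher in muscle than in spleen (7.45 to 26.5; Fisher's exact test, adjusted p = 0.0079), where 44.6% of 937 sites were called and 42.6% were higher in muscle. Calls in the direction of Dnmt3a were thus common in these pairs. The spleen call was lost under a Bonferroni adjustment of Fisher's exact test (adjusted p = 1), and at a minimum of 50 reads the spleen level was not tested.

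Muscle was also 9.72 points above heart at the Dnmt3a site (2.93 to 16.4; Fisher's exact test, adjusted p = 0.020, or 1 by Bonferroni), which missed the 10-point minimum, and 23.4% of 1645 sites differed by at least that much between these tissues. Differences of 14.1 points from lung (-1.29 to 21.6; Fisher's exact test, adjusted p = 0.13) and 8.28 points from liver (-3.03 to 16.6; Fisher's exact test, adjusted p = 0.24) did not pass. The lung level rests on 30 reads and the liver level on 64, and both intervals run from below 0 to over 10 points. Heart minus spleen (11.1 points) and liver minus spleen (12.5 points) exceeded 10 points as well, with adjusted p-values of 0.14 and 0.25 by Fisher's exact test.

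**Figure D2:**
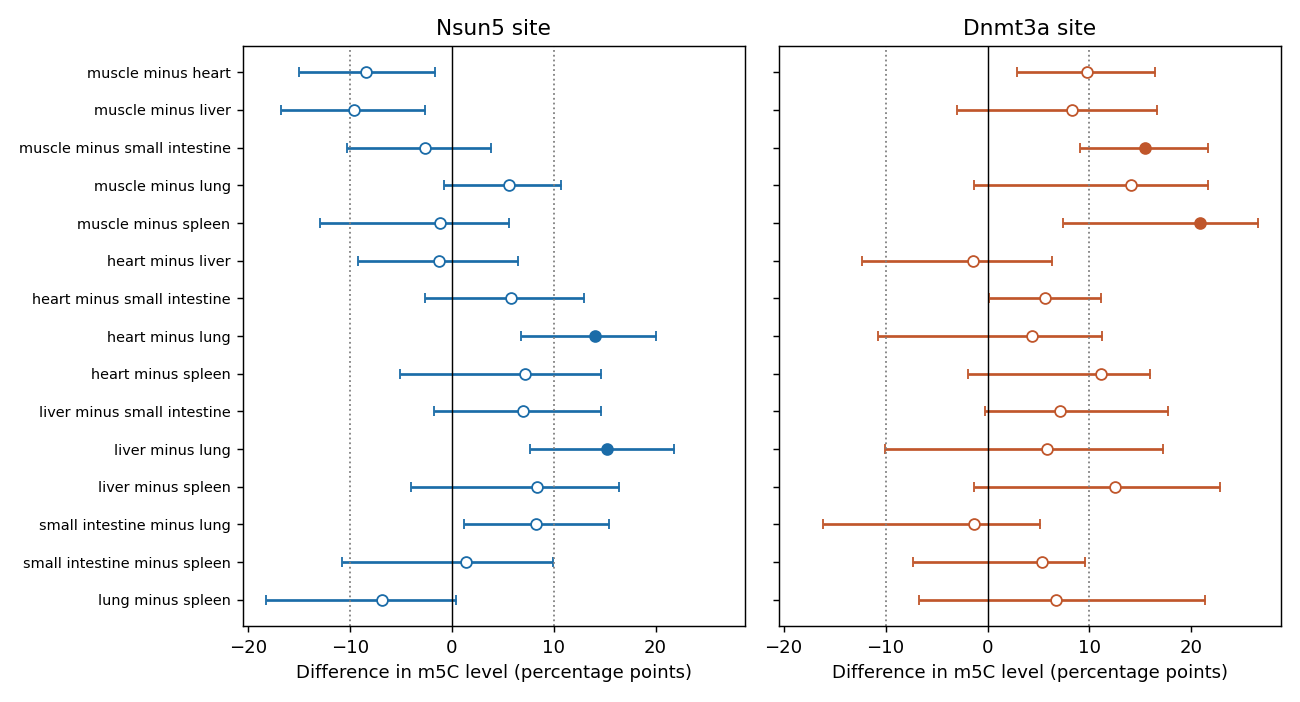
Differences in m5C level between tissues (first minus second, percentage points) at the Nsun5 and Dnmt3a sites, with 95% Newcombe intervals of counting error; filled points were called and dotted lines stand at 10 points either side of 0. Muscle minus heart was -8.40 points at Nsun5 and 9.72 points at Dnmt3a.

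The 2 sites parted most clearly in muscle. There the Dnmt3a level exceeded the Nsun5 level by 15.1 points, with a 95% interval of 8.20 to 21.5 points. In the remaining tissues the interval of Dnmt3a minus Nsun5 included 0, namely -2.98 points in heart (-9.93 to 3.60), -2.73 points in liver (-11.7 to 8.64) and -2.87 points in small intestine (-10.5 to 2.96). Lung had 6.67 points (-0.833 to 21.3) and spleen -6.82 points (-18.2 to 6.42). The muscle minus heart intervals of the 2 sites, 2.93 to 16.4 points at Dnmt3a and -15.001 to -1.66 at Nsun5, did not overlap. Neither of these differences was called. The intervals of muscle minus small intestine and of muscle minus spleen did not overlap either, whereas those of muscle minus liver and of muscle minus lung did. These contrasts were looked at with the levels known, and the difference between the sites in them was not itself tested. Each contrast uses the same muscle level of its site, so they are not independent of the 15.1-point gap in muscle. How often the intervals of 2 other listed sites fail to overlap was not counted. Over the 6 tissues the levels of the 2 sites differed by 6.20 points on average and had a Pearson r of 0.19. Both values are given as a description, since the 2 sites were read from the same column of each tissue.

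Coverage at the 2 positions also shifted between tissues. Dnmt3a had 231 reads and Nsun5 142 in muscle, a ratio of 1.63, and the ratio was 1.27 in heart and 1.92 in small intestine. It was below 1 in liver (64 and 151 reads, 0.424), lung (30 and 63 reads, 0.476) and spleen (27 and 44 reads, 0.614). Reads at 1 base depend on position within the transcript as well as on transcript number, so these ratios describe depth behind the levels and are not expression levels. The Dnmt3a level of 0 stood in spleen, where that site had its fewest reads, and the Nsun5 level of 0 in lung, where it had more reads than in spleen; the part of depth in them was not tested.

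Set among all sites with at least 20 reads, the Dnmt3a level in muscle was higher than that of 78.5% of the other sites, the median over all sites being 11.8%. The Nsun5 level in muscle was higher than that of 24.5%. In heart, where the median over sites was 10.99%, Nsun5 stood above 64.9% of other sites and Dnmt3a above 50.2%. In liver both were above most sites, Nsun5 above 80.1% and Dnmt3a above 72.7%, against a median of 6.38%. In small intestine the shares were 70.4% for Nsun5 and 59.1% for Dnmt3a. The spleen level of Nsun5, though only 3 reads, stood above 82.5% of the sites there, and the lung level of Dnmt3a, from 2 reads, above 77.5%, because medians were 1.17% in spleen and 1.90% in lung.

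**Figure D3:**
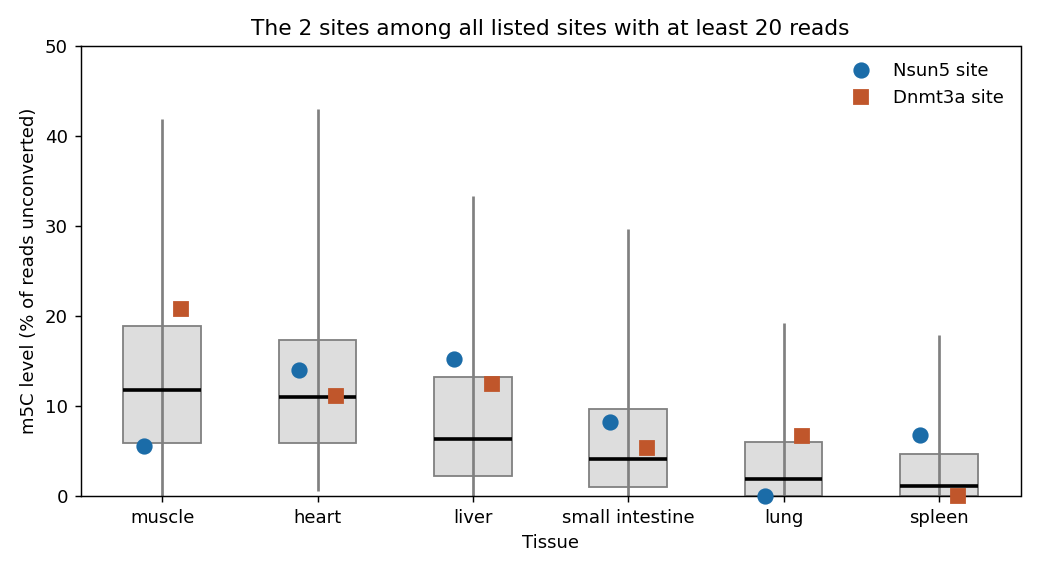
m5C levels of the Nsun5 and Dnmt3a sites (points) over all listed sites with at least 20 reads in each tissue; the bar spans the quartiles, the black line is the median and the vertical line runs from the 5th to the 95th percentile of sites. In muscle the Dnmt3a level (20.8%) lies above the upper quartile and the Nsun5 level (5.63%) just below the lower one.

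The authors' own calls can be set beside these levels. Of 802 sites with at least 20 reads in all 6 tissues, 56 (6.98%) were called in muscle, heart and liver and nowhere else, which is the pattern of Dnmt3a. The Nsun5 pattern, a call in heart and liver alone, was found at 13 sites (1.62%). Among the 149 sites called in both heart and liver, 119 (79.9%) were also called in muscle and 30 (20.1%) were not, Nsun5 among them. The muscle level lay below both the heart and the liver level at 135 of the 802 sites (16.8%) and above both at 394 (49.1%), with Nsun5 in the first set and Dnmt3a in the second. These patterns were chosen for counting after the levels of the 2 sites were known.

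The sites most like each of the 2 were taken as those with the smallest mean absolute difference in level over the 6 tissues, among 801 others. For Nsun5 the closest were 3 adjacent cytosines of Rock1, a kinase of the actin cytoskeleton, at 1.43, 2.08 and 2.29 points. Being adjacent, the Rock1 cytosines can share reads. The closest of them had 5.80% in muscle, while heart had 13.7%, liver 14.1%, small intestine 8.11%, and lung and spleen 0%. March3, a membrane ubiquitin ligase gene (2.36 points), and Mlx, a partner of glucose-responsive transcription factors (2.38 points), followed. For Dnmt3a they were Scrib, a cell polarity gene (1.69 points), Nr1h2, the liver X receptor beta (1.89), Col6a2, a collagen VI chain (2.35), Yap1, the Hippo pathway coactivator (2.50), and the tRNA methyltransferase gene Trmt1 (2.74). At the Scrib site muscle had 19.3%, heart 15.04%, liver 12.3%, small intestine 4.82%, lung 6.88% and spleen 3.77%.

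Few other genes of cytosine methylation were listed. Of 32 genes of DNA and RNA cytosine methylation, with their readers and erasers, 3 had a site, and besides the 2 methyltransferases this was Ybx2, a germ-cell Y-box protein that binds mRNA. The Ybx2 site had 14.6% of 192 reads unconverted in muscle, 10.4% of 394 in heart and 7.14% of 42 in small intestine, and no pair of these tissues passed. The list's 33 tests over the 15 pairs gave 4 calls, all of them the Nsun5 and Dnmt3a calls above, or 12.1%, beside 23.5% of 17579 tests over all sites. Of 33 genes of rRNA modification and ribosome assembly, Mrm1, a mitochondrial rRNA methyltransferase, alone was listed. Muscle had 14.6% at its site, heart 13.9%, liver 17.6% and small intestine 19.6%, and none of its 6 tests was called.

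The list of other RNA methyltransferases and their partners took in every gene name starting Mettl or Trmt, whatever the substrate of the enzyme. It had 9 listed sites in 5 genes and gave 11 calls in 66 tests (16.7%), all higher in the first-named tissue, muscle or heart. Over all sites 23.5% of tests were called, 21.2% higher and 2.34% lower in the first tissue, so the list's share lay below that of all sites and its direction was the common one. Those calls came from Trmt1 and Rnmt. Rnmt, the mRNA cap guanine methyltransferase, had 18.3% in muscle against 2.25% in heart (Fisher's exact test, adjusted p = 2.1e-04), and from 0 to 1.09% elsewhere. Trmt1, which dimethylates a guanosine of tRNAs, had 21.5% in muscle and 13.5% in heart, then less in liver (6.20%), small intestine (4.48%), lung (1.12%) and spleen (0.524%). In muscle and heart it lay within 3 points of Dnmt3a. The sites of Mettl13, listed by its name alone, and of Rbm15b, a partner of the m6A writer, were not called in any pair. Each of these 2 genes had 3 sites a few nucleotides apart, which can share reads. Their uncalled tests lower the list's share of calls.

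Genes of protein methyltransferases and of partners of DNA methyltransferases had 12 sites in 10 genes and gave 10 calls higher and 1 lower in 64 tests (17.2%). That is again below the 23.5% of all tests, which also were mostly higher in the first tissue (21.2%). Kmt2d, a histone H3 lysine methyltransferase, had 20.7% in muscle and 20.05% in heart, and was called higher in each of these than in lung (6.997%) and spleen (9.92%). Ezh1, a catalytic subunit of the Polycomb repressive complex PRC2, had 11.2% in muscle against 0.690% in spleen (Fisher's exact test, adjusted p = 1.9e-05). Smyd2, a lysine methyltransferase, was the one called lower in muscle, 24.6% against 50.8% in heart (Fisher's exact test, adjusted p = 3.9e-48). Setd7, another lysine methyltransferase, had 5.83% in muscle and 13.6% in heart; small intestine had 4.35% and spleen 0%, and heart was called higher than spleen. Its muscle and heart levels were close to those of Nsun5, but muscle minus heart was not called at either site.

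**Figure D4:**
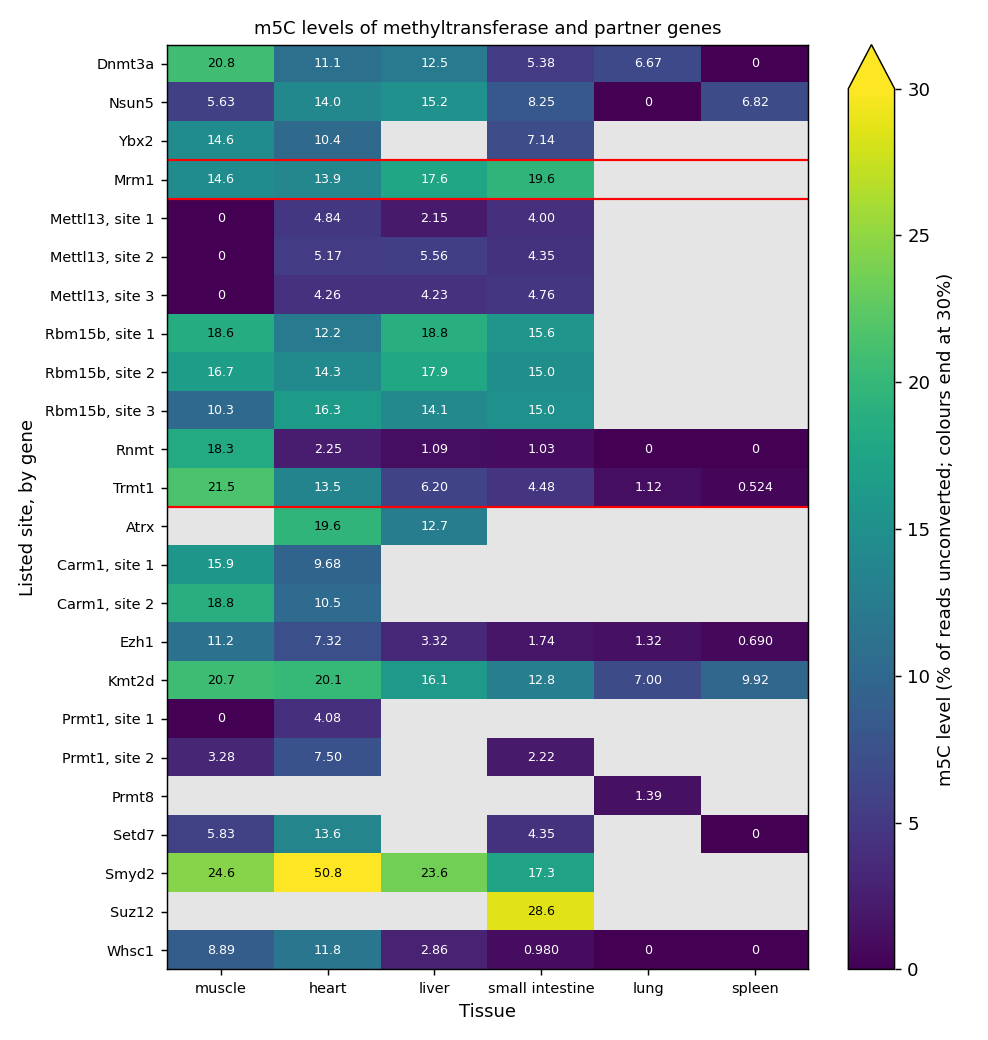
m5C level (percent of reads unconverted) in each tissue of every listed site of the 4 gene lists that had at least 20 reads in some tissue; red lines divide the lists, in the order cytosine methylation, rRNA modification, other RNA methyltransferases, and protein methyltransferases with DNA methyltransferase partners, and grey cells had fewer than 20 reads or none. Dnmt3a, Rnmt and Trmt1 are highest in muscle, as are Ybx2, Ezh1, Kmt2d and others in the plot. Nsun5 and Setd7 are lower in muscle than in heart by their values, without being called. Further sites are lower in muscle too, among them Smyd2, which was called.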

How the data were processed

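Polyadenylated RNA of 6 tissues was bisulfite-treated and sequenced; the submitters' processing notes name HISAT2 2.10, SAMtools, cutadapt, Trimmomatic and bcl2fastq 2.17, and the build mm10. The sources used here do not say how libraries were combined, unconverted reads filtered or sites listed. The authors' deposited table holds, per site and tissue, a count of covering reads (coverage, at least 10), the m5C level as a fraction, a p-value and a call; the fractions are printed as percentages. No site called by the authors has fewer than 20 reads or a level under 10%.

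Unconverted reads were recovered as level times coverage, within 0.000179 of a whole number in all 9926 filled cells. Pairs of tissues were tested with Fisher's exact test in scipy 1.17.1 (Python 3.11.15) and tested on simulated data first; intervals are 95% Wilson intervals for levels and Newcombe intervals for differences. Whether reads are independent molecules is not known, so intervals and limits of 3 counts cover counting error only. Alternatives changed the read minimum (10, 50), the minimum difference (0, 5 points), the test, the adjustment and the sites tested. Named sites are all sites of the 2 genes and of the cytosine methylation list, up to 4 best covered sites of each of 3 further lists, and the 5 sites most like each; Suz12, Atrx and others appear only in the plot of lists. The genes, lists and comparisons were chosen with earlier results of these data known. Gene spans and transcription starts came from RefSeq on GRCm38.p6.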

Additional observations from a re-analysis of the deposited data

How the results depend on the processing

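Each of the 2 sites was called in 2 of 15 pairs of tissues, and the same number was called with a minimum of 10 reads, with a chi-square test, with adjustment over all 15 pairs together, on sites the authors called outside the pair, and on sites without a listed neighbour within 10 nt. Apart from the chi-square test, these settings left each unadjusted p of the 2 sites as it was and changed only its adjustment. A minimum of 50 reads left 6 pairs for Dnmt3a, with 1 called. With no minimum difference, or with 5 points, 4 pairs were called for Nsun5 and 3 for Dnmt3a. A Bonferroni adjustment left 0 calls for Nsun5 and 1 for Dnmt3a. Of 255 pair tests repeated under the alternatives, 246 kept their side of the call rule, 6 gained a call and 3 lost one, all 3 under Bonferroni. Most of the pairs had no call to lose, so the 246 say little about how stable the calls are. Pairs that a setting left untested are not counted, among them the called Dnmt3a difference of muscle and spleen at 50 reads. The differences themselves are the same reads in each setting and could not change. Over the gene lists, dropping the minimum difference gave cytosine methylation 2 calls lower in the first tissue against 0, in 33 tests, both at the Nsun5 site. Calls higher in the first tissue were 17 against 11 in 66 tests for other RNA methyltransferases. For protein methyltransferases they were 23 against 10 in 64 tests. Over all sites, calls higher in the first tissue were 35.2% of tests against 21.2%, and calls lower 4.82% against 2.34%. Calls in either direction were 40.1% of all tests against 23.5%. By Pearson correlation 1 of the 5 sites most like Nsun5 was shared and 0 of those most like Dnmt3a. With 50 reads at the compared sites 3 of 5 were shared for each, over 5 tissues for Nsun5 and 4 for Dnmt3a. The 3 shared for Nsun5 were the adjacent Rock1 cytosines. With Clopper-Pearson intervals the upper end that moved most was that of Dnmt3a in lung, 22.1% against 21.3%. No paired analysis was possible because the table has 1 column set per tissue and no library columns; leaving out a library was not run for the same reason. Depth limits the lung and spleen levels most.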
